A study of Mus musculus with 8 samples.

Results

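The vesicular glutamate transporters are encoded by 3 genes, Slc17a6 (VGLUT2), Slc17a7 (VGLUT1) and Slc17a8 (VGLUT3), and accessible chromatin was described around each of them in 8 mouse brain libraries. These 3 genes, taken by name from 21883 protein-coding genes, were extended by 50 kb on both sides, and 91 of the 443327 accessible regions found in any library overlapped the 3 windows. ATAC-seq was used, in which the transposase Tn5 cuts open DNA and inserts sequencing adapters. Fn14 KO mice, which lack the receptor for the cytokine TWEAK, and their WT littermates were untreated and gave coronal brain sections at postnatal day 27, with 2 libraries per genotype. Those sections held cortex and hippocampus and also the dLGN (dorsal lateral geniculate nucleus), which passes retinal signals on to visual cortex. C57Bl/6J mice on PLX5562 chow, given to remove microglia, or on control chow from day 20 were killed at postnatal day 32. Their dLGN was dissected out for 2 libraries on each diet. The name PLX5562 is spelled as in the labels and could not be checked. All 4 groups have the C57Bl/6J background, and the labels do not say whether animals were pooled. Nothing says that the libraries of a group came from separate mice, so p-values measure only the spread between libraries, which may be technical.

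Vesicular glutamate transporters load glutamate into synaptic vesicles, driven by the gradient that the vesicular proton pump sets up, and a neuron that carries one can release glutamate. In the adult forebrain VGLUT1 is the main form of cortical and hippocampal neurons, and VGLUT2 that of many thalamic and brainstem neurons and of retinal axons. VGLUT3 is found in few neurons, many of which also release another transmitter. A contrast of dLGN with sections therefore sets tissue rich in a VGLUT2-type population against tissue that adds VGLUT1-type cortex and hippocampus. Because the sections contain dLGN themselves, and tissue, age and experiment changed together, these cannot be told apart. In tissue, fewer open cells of a type and less opening per cell cannot be told apart either.

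Per the gene table, Slc17a6 lies at chr7:51621830-51671126 on the plus strand (mm10), with Ano5 as the only other protein-coding gene in its window. Slc17a7 lies at chr7:45163921-45176139 on the plus strand and shares its window with 10 others, among them the ribosomal protein gene Rpl13a. Slc17a8 lies at chr10:89574020-89621249 on the minus strand, and its window also holds parts of Nr1h4 and Scyl2. The 250 bases before 4 of their RefSeq starts (GRCm38.p6, the mm10 build) are shown because the peaks at these starts differ so much between the genes. They are printed from 5′ to 3′ on the gene's strand, at chr7:51621580-51621829, chr7:45163671-45163920, chr10:89621250-89621499 and chr10:89599816-89600065. Capitals mark GGGCGG, the GC box, and CAGATG, an E-box, on either strand.
Slc17a6 first start: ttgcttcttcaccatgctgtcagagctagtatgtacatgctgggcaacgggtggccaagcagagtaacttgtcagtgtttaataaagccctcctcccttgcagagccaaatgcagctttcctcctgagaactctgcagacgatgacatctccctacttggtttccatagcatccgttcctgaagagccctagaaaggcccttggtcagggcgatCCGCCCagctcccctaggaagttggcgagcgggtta
Slc17a7 start: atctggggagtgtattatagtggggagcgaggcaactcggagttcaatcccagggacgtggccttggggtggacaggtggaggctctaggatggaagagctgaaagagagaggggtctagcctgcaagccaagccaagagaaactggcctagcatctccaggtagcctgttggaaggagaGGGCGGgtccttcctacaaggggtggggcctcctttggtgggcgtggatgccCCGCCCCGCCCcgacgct
Slc17a8 first start: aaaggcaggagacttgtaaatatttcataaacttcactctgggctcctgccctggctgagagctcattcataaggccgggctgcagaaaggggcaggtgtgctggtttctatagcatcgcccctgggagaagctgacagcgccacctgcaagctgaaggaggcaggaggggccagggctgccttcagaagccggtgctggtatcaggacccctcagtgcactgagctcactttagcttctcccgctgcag
Slc17a8 second start: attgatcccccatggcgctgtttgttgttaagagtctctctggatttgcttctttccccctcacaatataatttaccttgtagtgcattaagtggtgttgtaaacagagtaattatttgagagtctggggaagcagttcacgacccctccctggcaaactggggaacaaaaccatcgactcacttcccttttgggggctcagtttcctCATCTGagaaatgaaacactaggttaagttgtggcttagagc

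GGGCGG was found 3 times before the Slc17a7 start, with 2 of the matches sharing a base, and 1 time before the first Slc17a6 start. It occurs in 32.7% of the 32851 RefSeq start windows of this length. CAGATG was found 1 time before the second Slc17a8 start and is present in 14.4% of windows. It was also found 1 time before the second Slc17a6 start (chr7:51624387-51624636), whose sequence is not printed here. The other 5 motifs searched on both strands had no match in the 4 sequences: CCAAT (present in 33.8% of windows), TATAAA (in 12.4%), TGACGTCA (in 1.55%), TGANTCA (in 6.75%) and CTTTGAT (in 3.21%). The Slc17a7 sequence holds 9 CpG dinucleotides, the first Slc17a6 sequence 7, and the Slc17a8 sequences 5 and 3, against a median of 6. By these letters the Slc17a7 start is the richest in CpG of the 4, with 59.7% of windows below it.

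Each library is a list of peaks with the authors' fold enrichment over local background and −log10 p per peak. Lists held 248989 to 299822 peaks, and both KO lists ended near the authors' limit of 300000. Read depth is unknown, so no counting interval is given. The same rank stood for a higher −log10 p in dLGN than in section libraries: the weakest of the 50000 strongest regions had 25.2 to 33.0 in dLGN and 13.4 to 21.5 in sections. Regions were therefore compared by rank, with 1 the strongest, in lists cut to 192168 regions, the length of the shortest. Of 12 marker genes of cortical and hippocampal excitatory neurons, 5, Neurod2 and Cux2 among them, had more selected regions (those among the 50000) in every section library, and 1, Prox1, had more in every dLGN library. That list summed to 44 to 55 regions per dLGN library and 59 to 68 per section library, and Fezf2 was at 0 in all 4 dLGN libraries. Of 12 thalamic marker genes, Foxp2 was higher in dLGN (13.5 ± 1.91 regions against 5.75 ± 2.22, SD, n = 4 each), while Rora and Grid2ip were higher in sections and Tcf7l2 (3.75 ± 0.96 and 5.25 ± 0.50), Lef1 (8 ± 0 and 7.5 ± 1.29) and 7 others overlapped. Over all genes, 6.86% were higher in dLGN and 10.9% in sections by this count. Of the cortical calls, 5 went with the tissue labels and 1 against, while of the thalamic calls 1 went with them and 2 against. Neurod6, a cortical marker, overlapped at 4.5 ± 1.29 in dLGN and 3 ± 0 in sections. Microglial markers summed to 22 to 26 regions in dLGN and 28 to 34 in sections, but each of the 8 genes overlapped between the tissues. Astrocyte markers summed to 34 to 40 and 34 to 43, with 1 of 6 genes higher in sections. Oligodendrocyte markers summed to 39 to 47 and 33 to 46, and inhibitory neuron markers to 19 to 24 and 17 to 26, and every gene of these lists overlapped. The part of these cell types in the results at the transporter genes was not tested.

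The first question was whether the thalamic and the cortical transporter gene differ between dLGN and sections. No difference in the number of strong regions passed the test. Slc17a6 had 2 selected regions in each dLGN library and 3, 3, 2 and 1 in KO 1, KO 2, WT 1 and WT 2. The dLGN mean of 2 ± 0 and the section mean of 2.25 ± 0.96 (SD, n = 4 each) overlapped, with an exact 2-sided permutation p of 1. Slc17a7 had 7 in every library except PLX chow 1, which had 6 (6.75 ± 0.5 in dLGN and 7 ± 0 in sections, exact permutation p = 1). Slc17a8 had 3, 3, 2 and 3 in PLX chow 1, PLX chow 2, control chow 1 and control chow 2, and 3, 5, 3 and 3 in the sections. Its means were 2.75 ± 0.5 and 3.5 ± 1 (exact permutation p = 0.571, where the smallest that 4 against 4 libraries allow is 0.0286). Over all 21883 genes, 6.86% had more selected regions in every dLGN library and 10.9% in every section library. None of the 3 transporter genes did, at this list length.

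Counts were also taken in longer lists, where a separation of the tissues at 1 length was absent at the others. Among the 100000 strongest regions of each list, the Slc17a8 window held 7, 9, 6 and 5 regions in KO 1, KO 2, WT 1 and WT 2, and 4, 3, 3 and 4 in PLX chow 1, PLX chow 2, control chow 1 and control chow 2. Sections were higher in 4 of 4 libraries (means 6.75 and 3.5, exact 2-sided permutation p = 0.0286 before any adjustment), as for 9.61% of all genes, while 8.33% were higher in every dLGN library. At that p no gene could pass an adjustment over all genes. With all merged regions the Slc17a8 window had a mean of 14.5 in both tissues. The Slc17a7 window then had 20, 17, 18 and 21 regions in the 4 section libraries and 10, 14, 13 and 11 in the dLGN libraries (means 19 and 12, exact permutation p = 0.0286), as for 10.9% of all genes, while 7.61% were higher in dLGN. Slc17a6 overlapped at both lengths, with 4, 3, 3 and 3 regions in the sections and 4, 5, 4 and 5 in dLGN among the first 100000.

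Region by region, a region was called ahead in a tissue where its rank in each of that tissue's 4 libraries was better than in any of the other 4. Of the 91 regions, 4 (4.40%) were ahead in dLGN and 10 (10.99%) in sections, where 11.2% and 9.07% of all regions were. The section share is near the background and the dLGN share is below it. With ranks by fold enrichment, 12 of these 14 regions were ahead in the same tissue, where 10.9% of all regions were ahead in dLGN and 8.5% in sections. By gene, Slc17a6 had 2 ahead in dLGN and 1 in sections among 22 regions. Slc17a7 had 0 and 3 among 32, and Slc17a8 had 2 and 6 among 37. These are few calls per gene, and a difference between the genes was not tested. Only 13 of the 91 regions ranked within the cut list in all 8 libraries, 8 of them near Slc17a7, and 33 had a peak in 1 library alone.

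**Figure D1:**
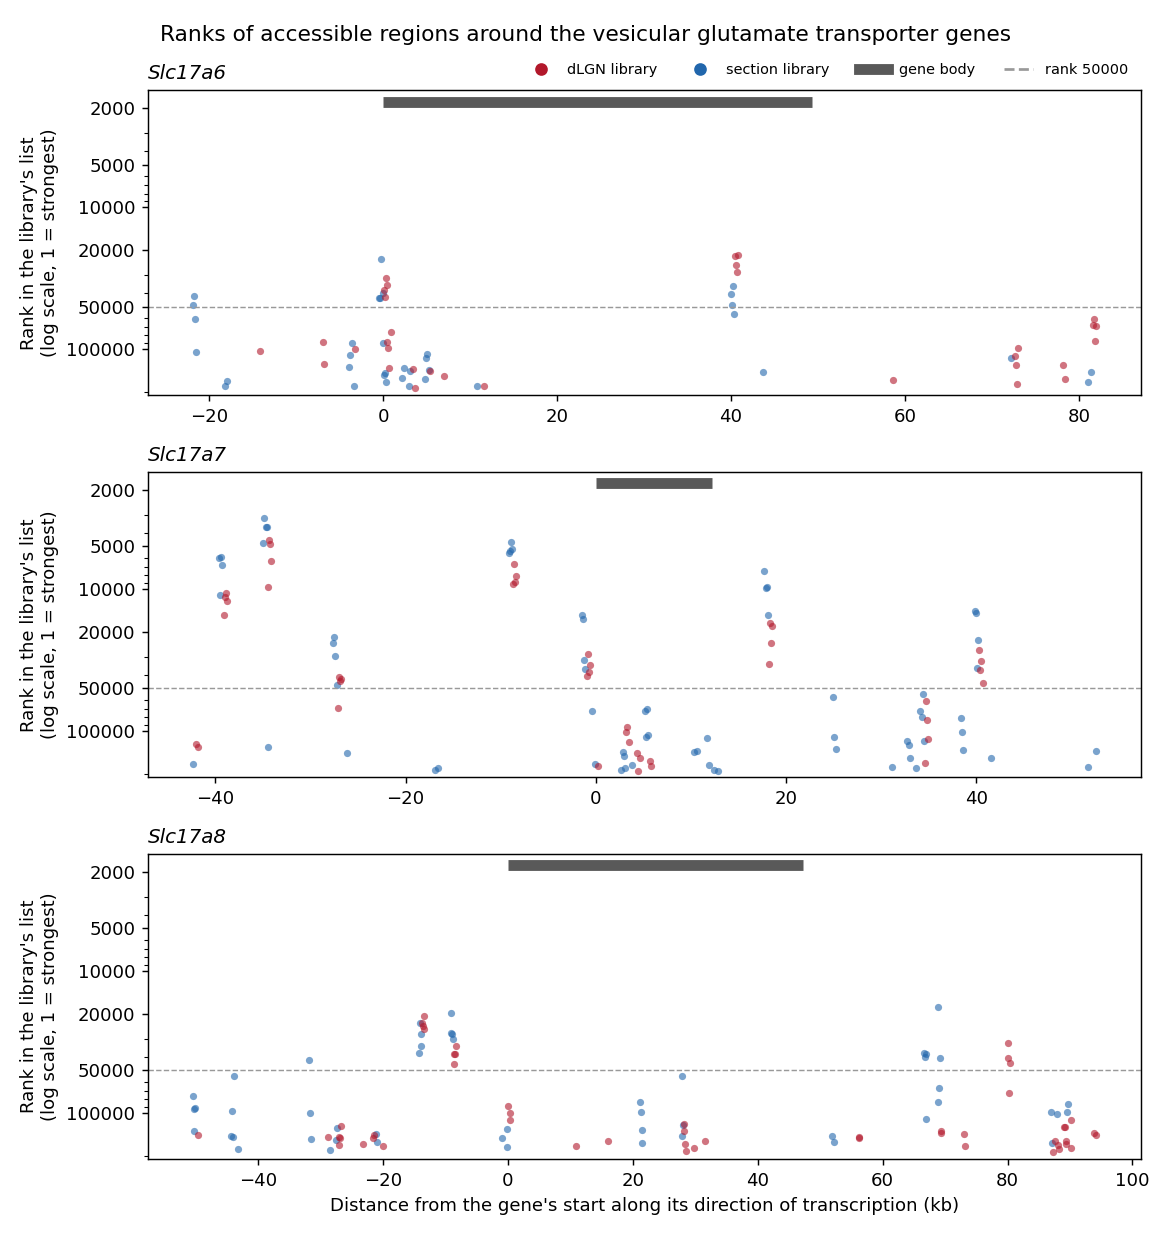
Rank of each region in each library (vertical, log scale, 1 is the strongest) against distance from the gene's start in kb, for dLGN libraries (red) and section libraries (blue), with the gene body as a grey bar and rank 50000 as a dashed line. Strong regions lie inside the gene body only at Slc17a6, while those near Slc17a7 and Slc17a8 lie outside it.

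At Slc17a6, the VGLUT2 gene, the start itself was open in every library. The region over it, chr7:51621531-51622226, covers the whole first Slc17a6 sequence printed above and reaches into the gene. Its rank was 43876 and 43633 in KO, 23225 and 40261 in WT, 38219 and 42805 in PLX chow and 31624 and 35395 in control chow. The authors' fold was 4.86, 4.85, 6.86 and 4.95 in the section libraries and 7.83, 6.86, 8.84 and 7.16 in dLGN, with −log10 p of 24.8, 21.7, 34.7, 17.2, 37.9, 30.9, 57.7 and 42.1 in the same order. By rank the tissues overlapped, with the best rank in WT 1, and their difference did not pass (exact 2-sided permutation p = 0.886). Among start windows of all protein-coding genes, 47.6% were selected in all 8 libraries, as this one was, 6.56% were ahead in dLGN and 18.7% in sections. The second Slc17a6 start, further into the gene (window chr7:51624387-51624636), had a weak peak in KO 1 and WT 1 only, with −log10 p of 5.02 and 4.74.

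The stronger of the 2 Slc17a6 regions ahead in dLGN lay deep inside the gene, at chr7:51662255-51662971, 40.4 kb past the start and short of the gene's end. Its rank was 21953, 25485, 28499 and 21671 in PLX chow 1, PLX chow 2, control chow 1 and control chow 2, and 40585, 48760, 35780 and 56591 in KO 1, KO 2, WT 1 and WT 2. Every dLGN library ranked it before every section library, and all but WT 2 selected it. Among all regions within the cut list in all 8 libraries, as this one was, 17.4% were ahead in dLGN and 19.2% in sections. The fold was 9.91 to 11.2 in dLGN and 4.52 to 6.42 in sections, and the −log10 p 55.7 to 71.5 and 11.9 to 27.1. In each dLGN library this internal region ranked before the start region, and in KO 2, WT 1 and WT 2 it ranked behind it. With KO 1 on the side of the dLGN libraries, that order of the 2 regions was not a clean split of the tissues.

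Another region ahead in dLGN lay outside the gene on its 3′ side, at chr7:51703364-51703916, 81.5 kb past the start. Its rank was 67204, 61495, 87739 and 68666 in PLX chow 1, PLX chow 2, control chow 1 and control chow 2 (fold 4.15 to 5.46), so it was selected nowhere. In KO 1 and WT 1 it had rank 170012 and 143936 (fold 2.54 and 2.60), and KO 2 and WT 2 had no peak there. The only region ahead in sections lay 21.4 kb before the start at chr7:51599956-51600392, with its centre 1467 bp from Ano5, which encodes a membrane protein of the anoctamin family. It ranked 49088, 41943, 61686 and 104609 in KO 1, KO 2, WT 1 and WT 2, with folds of 5.69, 5.73, 4.37 and 3.11. No dLGN library had a peak there.

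**Figure D2:**
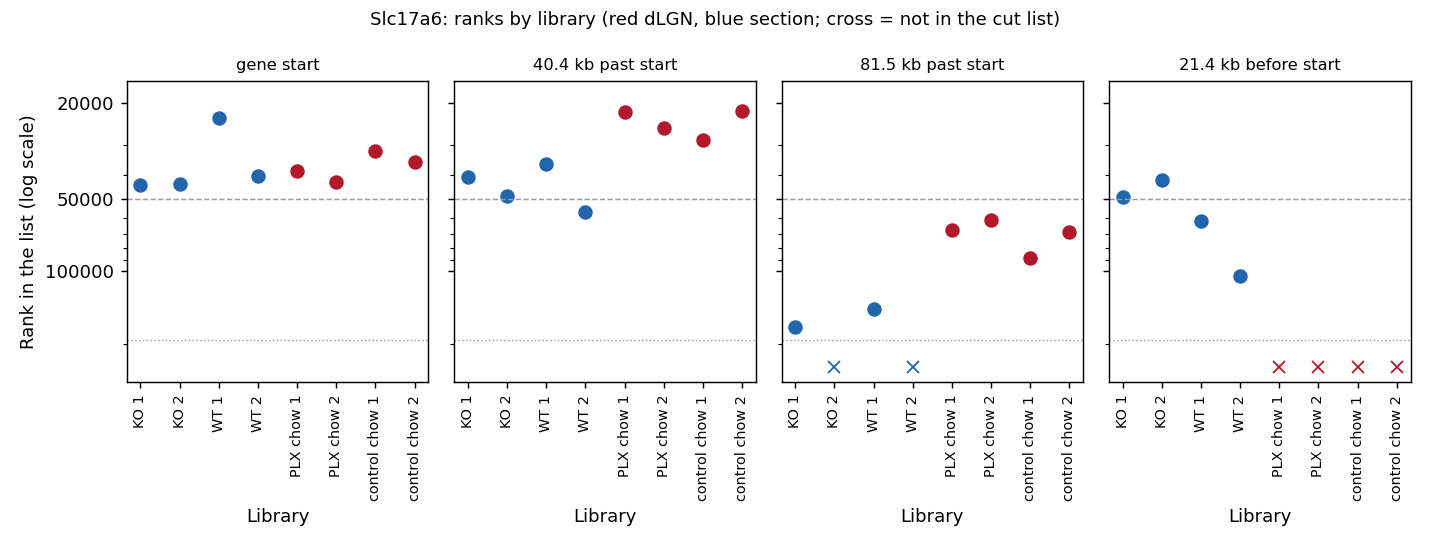
Rank in each library (vertical, log scale) of 4 Slc17a6 regions, dLGN in red and sections in blue, with crosses for libraries where the region is not in the cut list, a dashed line at rank 50000 and a dotted line at 192168. The ranks overlap at the gene start and separate at the other 3 regions.

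At Slc17a7, the VGLUT1 gene, no selected region touched the gene body in any library, and the start was nearly closed by peak calls. The region over the start, chr7:45163768-45164011, had rank 72179 in KO 1, 169464 in WT 2 and 175229 in PLX chow 2, with folds of 2.71, 2.03 and 2.11, and no peak in the other 5 libraries. No tissue difference passed there (exact permutation p = 0.429). The strong region nearest to the start lay 1034 bp before it, at chr7:45161812-45162887, and was the only selected region for which Slc17a7 was the nearest gene. It was selected in all 8 libraries, with rank 15199 and 16276 in KO, 31627 and 36605 in WT, 41023 and 28435 in PLX chow and 38450 and 34257 in control chow. Its folds were 5.86, 5.81, 5.08 and 4.80 in the sections and 7.48, 8.76, 7.69 and 7.47 in dLGN. With ranks by fold enrichment the tissues overlapped there, at 32309 to 44213 in sections and 26998 to 36586 in dLGN. By −log10 p the KO libraries ranked this region best, and WT overlapped with dLGN.

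The single region ahead inside Slc17a7, at chr7:45169477-45169824 (5.6 kb past the start), was ahead in sections. Its rank was 72602, 109969, 69390 and 106173 in KO 1, KO 2, WT 1 and WT 2 (fold 2.55 to 3.83). In PLX chow 2 and control chow 1 it was 163344 and 176405, and the other dLGN libraries had no peak. All 8 values lie outside the first 50000. A stronger region ahead in sections lay 18.1 kb past the start, beyond the gene, at chr7:45182067-45183121, with its centre 756 bp from Pth2, which encodes a neuropeptide of the parathyroid hormone family. It ranked 7489, 9823, 9623 and 15179 in KO 1, KO 2, WT 1 and WT 2, and 33701, 17283, 23795 and 18197 in PLX chow 1, PLX chow 2, control chow 1 and control chow 2. The remaining one, at chr7:45153920-45155164, 8.8 kb before the start, covers starts of Aldh16a1 and Pih1d1. There the rank was 4681 to 5568 in sections and 6628 to 9183 in dLGN, and with ranks by fold enrichment the tissues overlapped. The strongest region of the window, over the start of Rpl13a at chr7:45128514-45129387, had rank 3158 to 4732 in sections and 4524 to 9682 in dLGN, which overlapped. Of the 7 regions of this window selected in any library, 4 lay over starts of neighbouring genes.

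**Figure D3:**
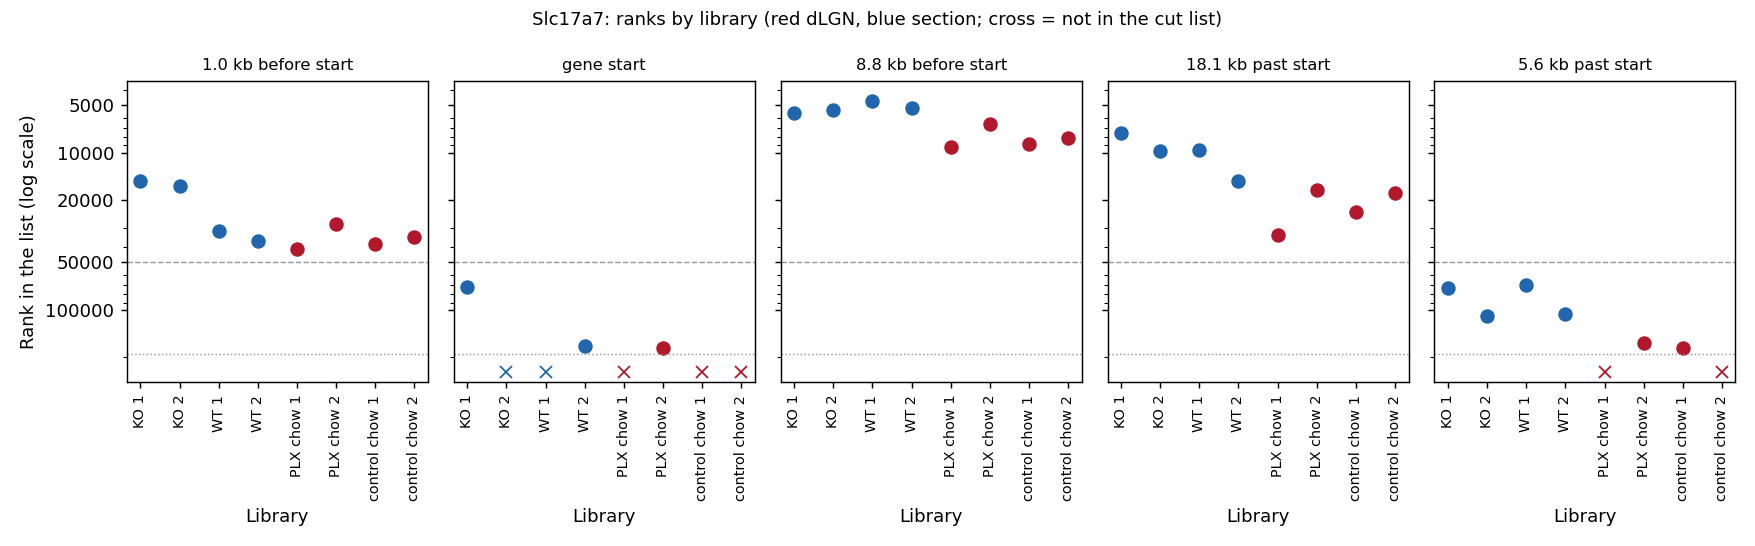
Rank in each library (vertical, log scale) of 5 Slc17a7 regions, dLGN in red and sections in blue, with crosses, dashed and dotted lines for absence, rank 50000 and rank 192168. The start region is within the cut list in 3 libraries, while the region 1.0 kb before it is selected in all 8.

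At Slc17a8, the VGLUT3 gene, no selected region touched the gene body either. The region over the first start, chr10:89621002-89621516, had rank 88920 in PLX chow 1, 111997 in control chow 1 and 99364 in control chow 2, and 128892 and 174033 in WT 1 and WT 2. KO 2 had a peak of fold 1.91 past the cut list, and KO 1 and PLX chow 2 had none. The 3 dLGN values are better than the 2 WT values, but PLX chow 2 overlaps with the sections (exact permutation p = 0.171). No library had a peak over the second Slc17a8 sequence printed above. A region 168 bp past that start, chr10:89599345-89599647, had a peak in all 4 section libraries and in no dLGN library. Its rank was 83503, 98284, 162488 and 132472 in KO 1, KO 2, WT 1 and WT 2, with folds of 3.997, 3.34, 2.32 and 2.65, so it was a weak region in each.

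The stronger Slc17a8 regions that separated the tissues lay outside the gene. Past its end, at chr10:89540330-89541311 (79.9 kb past the start, centre 7175 bp from Nr1h4, a bile acid receptor gene), the rank was 32238, 41147, 71780 and 44280 in PLX chow 1, PLX chow 2, control chow 1 and control chow 2. The dLGN folds were 9.03, 7.41, 4.86 and 6.42. Of the sections only KO 1 had a peak there, of fold 2.18 and past the cut list. Nearer to the gene, chr10:89553832-89554180 (67.1 kb past the start) behaved the other way: it ranked 37834, 40158, 38230 and 110390 in KO 1, KO 2, WT 1 and WT 2, and no dLGN library had a peak. Between these, chr10:89551305-89552008 (69.2 kb past the start) ranked 83502, 18035, 67076 and 41249 in the same section libraries, 138574 and 132871 in PLX chow, and had no peak in control chow. Regions ahead in dLGN and in sections thus lay side by side past the end of the gene.

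Before the Slc17a8 start, chr10:89629989-89630411 (8.7 kb before it) was selected in all 8 libraries and ahead in sections. It ranked 19630, 27293, 27520 and 30000 in KO 1, KO 2, WT 1 and WT 2, and 45204, 38441, 38560 and 33453 in PLX chow 1, PLX chow 2, control chow 1 and control chow 2. Its neighbour at chr10:89635012-89635569, 13.8 kb before the start with its centre 3430 bp from Scyl2, overlapped, with 23168 to 37446 in sections and 20638 to 25538 in dLGN. Folds at that neighbour were 5.61 to 7.81 and 10.2 to 11.3, which shows how far a fold and a rank can part between these tissues. The other regions ahead were weaker, with 1 in dLGN inside Nr1h4 and 2 in sections inside Scyl2, of which the outer one lies across the 50 kb limit.

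**Figure D4:**
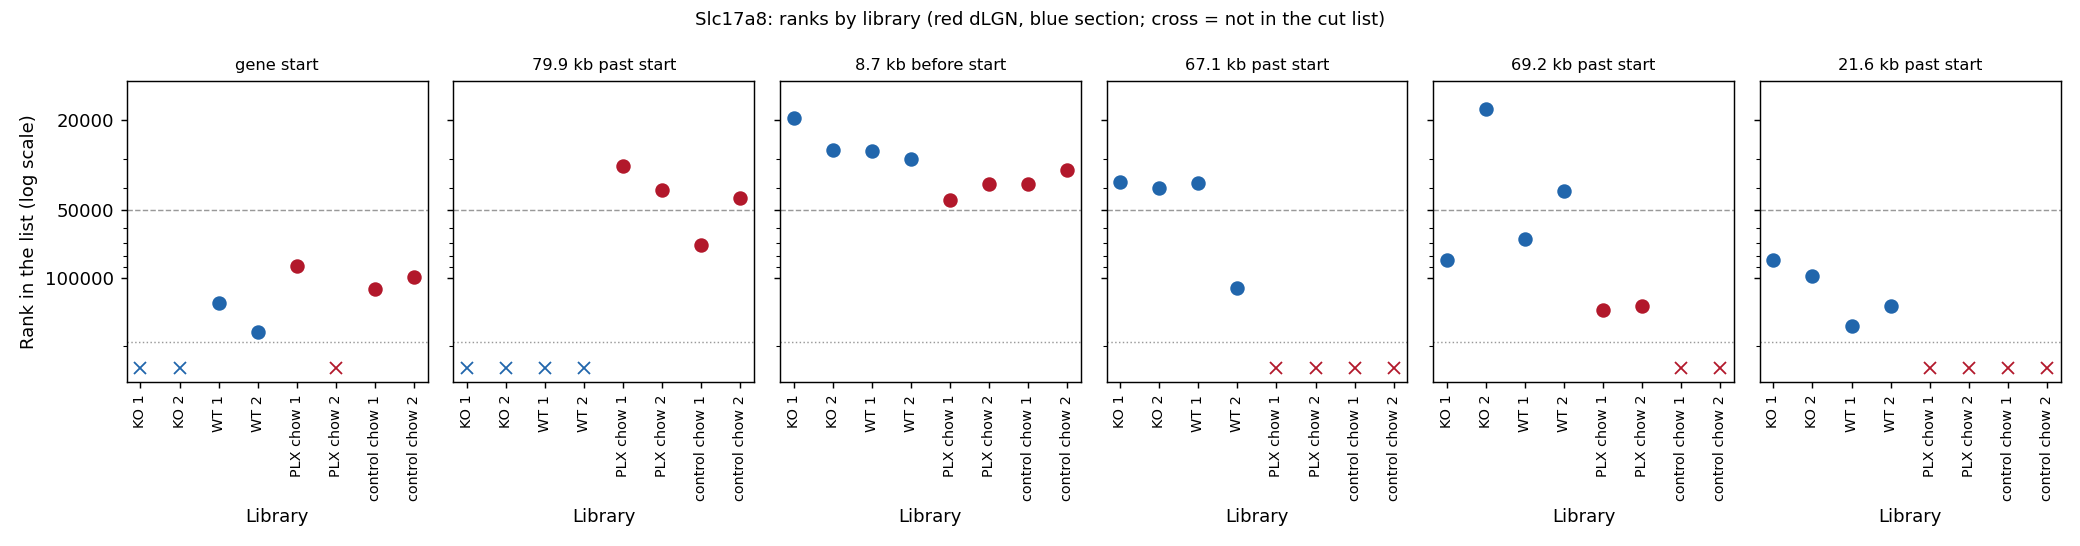
Rank in each library (vertical, log scale) of 6 Slc17a8 regions, dLGN in red and sections in blue, with crosses, dashed and dotted lines for absence, rank 50000 and rank 192168. The region 79.9 kb past the start is ahead in dLGN, and those 69.2, 67.1 and 21.6 kb past and 8.7 kb before it are ahead in sections.

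The second question was whether the transporter genes differ without Fn14. With 2 libraries against 2 the smallest exact 2-sided p is 0.333, so no difference can pass 0.05. Slc17a6 had 3 selected regions in both KO libraries and 2 and 1 in WT (exact permutation p = 0.333), as for 11.1% of all genes, while 7.07% had more in both WT libraries. The region near Ano5 was selected in both KO libraries and in neither WT library, and WT 2 also lacked the region 40.4 kb past the start among its selected regions. Slc17a7 had 7 in all 4 libraries. With 25000 selected regions its means were 7 in KO and 4.5 in WT (exact permutation p = 0.333, the smallest possible). The share of all genes that separate at that length was not computed. With all peaks merged the order was the other way, with means of 18.5 in KO and 19.5 in WT. Slc17a8 had 3 and 5 in KO against 3 and 3 in WT (exact permutation p = 1). By rank, 9 of the 91 regions (9.89%) were ahead in KO and 6 (6.59%) in WT, where 8.62% and 7.55% of all regions were. Both shares are near the background. By gene, 1 was ahead in KO and 2 in WT among 22 regions at Slc17a6. The counts were 6 and 1 among 32 at Slc17a7, and 2 and 3 among 37 at Slc17a8. A difference between the genes was not tested. Among the 6 at Slc17a7 was the region 1034 bp before the start, with 15199 and 16276 in KO and 31627 and 36605 in WT. At the Slc17a6 start the order was the other way, with 43876 and 43633 in KO behind 23225 and 40261 in WT. The selected regions covered 36501859 and 35830919 bp in KO and 32858696 and 33485974 bp in WT, and the part of this in the KO values was not tested.

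The third question was whether the genes differ in dLGN under a diet given to remove microglia. Slc17a6 had 2 selected regions in all 4 dLGN libraries. Slc17a7 had 6 and 7 under PLX chow and 7 and 7 under control chow, and Slc17a8 had 3 and 3 against 2 and 3 (exact permutation p = 1 for both). Across all genes 3.63% had more in both PLX chow and 4.55% in both control chow libraries, and none of the 3 was among them. By rank, 7 of 91 regions (7.69%) were ahead under PLX chow and 2 (2.20%) under control chow, against 6.63% and 6.90% of all regions. The Slc17a6 start was 1 of the 2, with 38219 and 42805 under PLX chow and 31624 and 35395 under control chow. At the dLGN region 79.9 kb past the Slc17a8 start, PLX chow was ahead, with 32238 and 41147 against 71780 and 44280. The Slc17a6 region 40.4 kb past the start overlapped between diets, with 21953 and 25485 against 28499 and 21671. Selected regions of the microglial markers summed to 22 and 26 under PLX chow, against 24 and 26 under control chow, and their part in these values was not tested.

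Genes of the same pathway were read between tissues in the same way, where 6.86% of all genes had more selected regions in every dLGN library and 10.9% in every section library. Among 6 other SLC17 family members, 0 were higher in dLGN and 1 in sections, Slc17a9, which carries ATP into vesicles (2.25 ± 0.5 in dLGN and 5.75 ± 1.26 in sections, SD, n = 4 each). Slc17a5, a lysosomal sialic acid transporter, had 10.2 ± 0.5 and 11 ± 1.83. Among 9 other vesicular transporter genes, 0 were higher in dLGN and 1 in sections, the monoamine transporter gene Slc18a1 (4.75 ± 0.96 and 7.5 ± 0.58). Slc32a1, which carries GABA into vesicles, overlapped at 2.5 ± 0.58 and 4 ± 0.82. The median difference (dLGN minus section) was −0.125 for the SLC17 relatives and −1 for the other vesicular transporters, against 0 over all genes.

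Among 16 genes of glutamate supply and clearance, 1 was higher in dLGN and 2 in sections, with a median difference of −0.25. The neuronal uptake gene Slc1a1 had 8.75 ± 0.5 selected regions in dLGN and 6.5 ± 0.58 in sections. The main astrocytic uptake gene Slc1a2 had 5 ± 0.82 and 9.75 ± 0.5, and the glutamine transporter gene Slc38a3 5.25 ± 2.06 and 10.8 ± 0.96. Of 13 genes of the vesicular proton pump, 0 were higher in dLGN and 1 in sections, the subunit gene Atp6v0c (4.75 ± 0.5 and 6.5 ± 0.58), with a median difference of −0.25. Most members of each list overlapped between the tissues, as did the 3 glutamate transporters in the number of selected regions.

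Likeness was measured as Pearson's r of the selected base pairs per window over the 8 libraries, a description over libraries that share tissue and experiment in groups of 4. For Slc17a6 the 3 closest genes were Abhd2 (r = 0.98), Slc4a1ap (0.96) and Ube2d1 (0.95) among 13980 genes compared. For Slc17a7 they were Tyw1, 2310011J03Rik and Cdh22 (0.99 to 1.00 among 13967), and for Slc17a8 Pax4 (0.98), St3gal4 (0.95) and Fscn3 (0.91) among 13976. These are the highest r of all genes compared over 8 libraries, so high values follow from the selection. Slc17a7 and its 3 closest genes all had the most selected base pairs in KO 1. Slc17a7 itself had 6265, 4885, 3815 and 3924 selected base pairs in KO 1, KO 2, WT 1 and WT 2 and 3027 to 3743 in dLGN. By base pairs, unlike by number, the tissues did not overlap, but WT 1 at 3815 lay close to control chow 1 at 3743. The share of all genes that separate the tissues by base pairs was not computed. The selected regions of the whole lists covered 32858696 to 36501859 bp in sections and 31695555 to 33663885 bp in dLGN, and the part of this in the Slc17a7 values was not tested.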

How the data were processed

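ATAC-seq peak lists of 8 libraries (4 groups of 2) were used, with groups taken from the sample titles. Per the deposited pipeline instructions, the authors ran the ENCODE ATAC-seq pipeline on paired-end reads against mm10 with a peak p threshold of 0.01; the list names record a limit of 300000 peaks. The sources used here do not give the aligner or peak caller; deepTools 3.5.0 appears in the submitters' processing notes. The deposited lists are per sample. Each deposited peak has a score (not used for results), a fold enrichment (a ratio over local background) and a −log10 p and −log10 q by the authors; these served only to describe and rank peaks within a list.

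Overlapping peaks (1 bp or more) were merged within a library, keeping the highest −log10 p, and ranked. The 50000 strongest were selected. Regions of the 8 libraries were joined where they overlapped, and a library without the region took the last rank. Genes came from a RefSeq table (GRCm38.p6); all 3 members matched, as did every gene of the lists. Counts per gene were compared by exact 2-sided permutation tests over libraries, without adjustment, beside the share of all genes or regions. Ranks at gene starts were tested likewise. Regions called ahead carry no p, since the same ranks called them. Distances of regions to neighbouring genes are from the region's centre, and those to transporter starts from its nearer edge. The members, lists and tests were chosen with earlier results of these data known. The naming rule took each start region, called regions within the first 50000 in any library, list genes whose tissues did not overlap, the 3 most alike genes and 6 markers; the regions 81.5 kb past the Slc17a6 start, 5.6 kb past the Slc17a7 start, and 168 bp past the second Slc17a8 start, those compared with them and the genes Slc17a5, Slc32a1, Rora, Grid2ip, Prox1, Neurod2, Cux2 and Fezf2 were named after their values were seen. Some genes under the rule are not reported here. Scripts were tested on simulated lists (Python 3.11.15, pandas 2.3.3).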

Additional observations from a re-analysis of the deposited data

Results flagged for a closer look

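Of 20 sets of 4 libraries of 1 tissue that were checked, 4 had a library apart from the other 3 by Dixon's criterion, and chance alone gives about 1 in 20. In counts with a range of 1 or 2 any single differing library is picked out. PLX chow 1 had 6 selected regions at Slc17a7 where the other dLGN libraries had 7. Control chow 1 had 2 at Slc17a8 where the others had 3. KO 2 had 5 at Slc17a8 where the other section libraries had 3. At the region 67.1 kb past the Slc17a8 start, WT 2 had rank 110390 where the other section libraries had 37834 to 40158, and dLGN had no peak.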

How the results depend on the processing

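No difference in selected regions at the 3 genes passed the test with 50000 selected regions, and of the recomputed differences 12 turned, 2 passed and 118 did neither. Among these 118, some differences of 0 became other than 0: KO minus WT at Slc17a7 was 2.5 with 25000 selected regions (7 against 4.5, exact permutation p = 0.333), 2 with 100000, −1 with all deposited peaks merged and 1 with unmerged peaks. PLX chow minus control chow at Slc17a6 was 1 with all peaks merged and −0.5 with unmerged peaks. At Slc17a6 the dLGN minus section difference of −0.25 turned to 0.25 with 25000 selected regions, with the gene body extended 10 kb, with the gene body only and by nearest gene. The value was 1.25 with 100000 regions and with unmerged peaks, and 0.5 with only the WT and control chow libraries, an alternative added after seeing the data. Its KO minus WT difference of 1.5 turned to −0.5 with 25000 regions and −1 with unmerged peaks. At Slc17a7 the PLX chow minus control chow difference of −0.5 turned to 0.5 with 100000 regions and with unmerged peaks, and the tissue difference passed at −7 with all deposited peaks merged. At Slc17a8 the tissue difference passed at −3.25 with 100000 regions, and the chow difference of 0.5 turned to −3 with all peaks. For these turns the cause was not tested.

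Leaving out each library gave tissue differences of −0.67 to 0 (Slc17a6), −0.33 to 0 (Slc17a7) and −0.92 to −0.25 (Slc17a8), genotype differences of 1 to 2, 0 to 0 and 0 to 2, and chow differences of 0 to 0, −1 to 0 and 0 to 1. With 1 library left in an arm these are values with no test. The replicate block, which permutes within replicate numbers, left every difference as it was, for example 1.5 at Slc17a6 for KO minus WT (exact permutation p = 0.5); the labels give the numbers no shared source. It moved 1 count of region calls, Slc17a7 ahead in sections, from 3 to 5.

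Counts of regions ahead (dLGN, then sections) were 2 and 1 at Slc17a6, 0 and 3 at Slc17a7, and 2 and 6 at Slc17a8. In the gene body only they were 1 and 0, 0 and 1, and 0 and 1. Asking for selection in every library of a tissue and no peak in the other left 0 at each gene. Only the WT and control chow libraries gave 4 and 2 at Slc17a6, 6 in sections at Slc17a7 and 4 and 9 at Slc17a8. A rule over fewer libraries is looser. The share of all regions that it calls was not computed, here or with 1 library left out, so these counts have no background. Leaving out 1 library gave 2 to 4 and 1 to 2 (4 and 2 without KO 1; 2 in sections without PLX chow 1), 0 to 1 and 3 to 6 (1 in dLGN without control chow 1; 5 without KO 2 and 6 without WT 2), and 2 to 3 and 6 to 7. Ranks by fold enrichment kept 12 of the 14 calls; the 2 lost were the Slc17a7 region over Aldh16a1 and Pih1d1 and the outermost Slc17a8 region. Read depth is unknown, so weak peaks near the calling threshold may be missed in shallower libraries.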
